A study of Solanum lycopersicum with 9 samples.

Results

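The comparison described here sets red ripe tomato fruit of line AS17, in which an antisense construct had silenced Asr1, against fruit of wild-type (WT) plants of the same cultivar (Solanum lycopersicum, cv Money Maker). It holds 3 AS17 arrays and 3 WT arrays of the 9 Affymetrix tomato arrays in the series, chosen by the line and pool in their labels, and covers 10038 of the 10209 probe sets, since 171 control probe sets were left out. The other 3 arrays are of AS5, a second antisense line, and serve to show what was seen in AS17 and not in AS5. Each array was made from a pool of mesocarp, the fleshy fruit wall, from 2 fruits, and the pools of a line came from different plants, so n counts pools. All plants were grown under the same greenhouse conditions and sampled at the red ripe stage. The labels name no promoter for the construct, AS17 is 1 line, and no plants with an empty construct are among the groups, so an effect of the silencing and one of the line cannot be told apart. In pooled tissue, fewer cells of a type and less RNA per cell cannot be told apart either.

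ASR proteins take their name from abscisic acid, stress and ripening. They are small plant proteins found in both nucleus and cytosol, where they bind DNA and act as chaperones, and in grape a family member was found to bind the promoter of a hexose transporter gene. Abscisic acid is made from carotenoids in plastids and then in the cytosol, accumulates as tomato fruit begin to ripen, and acts beside ethylene on ripening and water stress responses.

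Expression is given as the deposited log2 value of a probe set, so that a difference of 1 is a factor of 2. A probe set passed where limma's Benjamini-Hochberg adjusted p was under 0.05 over all 10038 probe sets, and SE is limma's standard error. Gene symbols were available for 909 probe sets (9.06%), which stood for 802 genes, and the other 9129 are unnamed here. No probe set carried the name Asr1 or that of another ASR gene, so the silencing itself was not checked on these arrays. The AS17 arrays had medians from 5.24 to 5.26, and the WT arrays from 5.30 to 5.33. A background level, set on each array from control probe sets for reporter genes, lay between 1.61 and 1.98 in AS17 and between 1.41 and 1.56 in WT. AS17 pool 1 stood apart from its group: 491 probe sets (4.89%) differed in it by more than 1 from the mean of AS17 pools 2 and 3, against 355 and 181 for those pools and 69 to 189 for the WT pools. AS5 pool 3 stood apart likewise, with 609.

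AS17 fruit had more losses than gains of transcript. Among the named genes, 15 fell and 1 rose. The 15 that fell were LOC543645, ER1, SNF4, TomloxE, NP24-I, P18, FPPS1, FLACCA, MFP1, copz1, CAT2, GA3ox1, PSY2, PLDa1 and CITRX. They range from NP24-I, an osmotin-type protein, to SNF4, a subunit of an energy-sensing kinase, and FLACCA, needed for abscisic acid synthesis. In no list of genes by function did more than 2 members fall. The gene that rose, LOC543515, carries the synonym LEXYL2, a cell wall xylosidase.

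In all, 135 of 10038 probe sets passed in AS17 minus WT (1.34%), 29 of them higher (0.289%) and 106 lower (1.06%). With each array centred on its median the split was 37 higher and 77 lower, and with quantile normalisation 41 higher and 88 lower. At an unadjusted p under 0.05 there were 1737 (17.3%). Of the 106 that fell, 65 fell by at least 1 (0.648% of all probe sets) and 14 by at least 2 on the log2 scale, with a median change of -1.09. Of the 29 that rose, 18 rose by at least 1 and 7 by at least 2, with a median change of 1.38. The 3 AS17 arrays lay outside the range of the 3 WT arrays for all 135, as they did for 21.6% of all probe sets, with AS17 above WT for 9.1% and below it for 12.5%. The calls were not confined to dim probe sets: the median WT level was 5.23 for those that fell and 5.27 for those that rose, against 5.31 for all. All 3 AS17 pools were at background for 8 of the probe sets that fell. The whole table had a median change of -0.02.

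**Figure D1:**
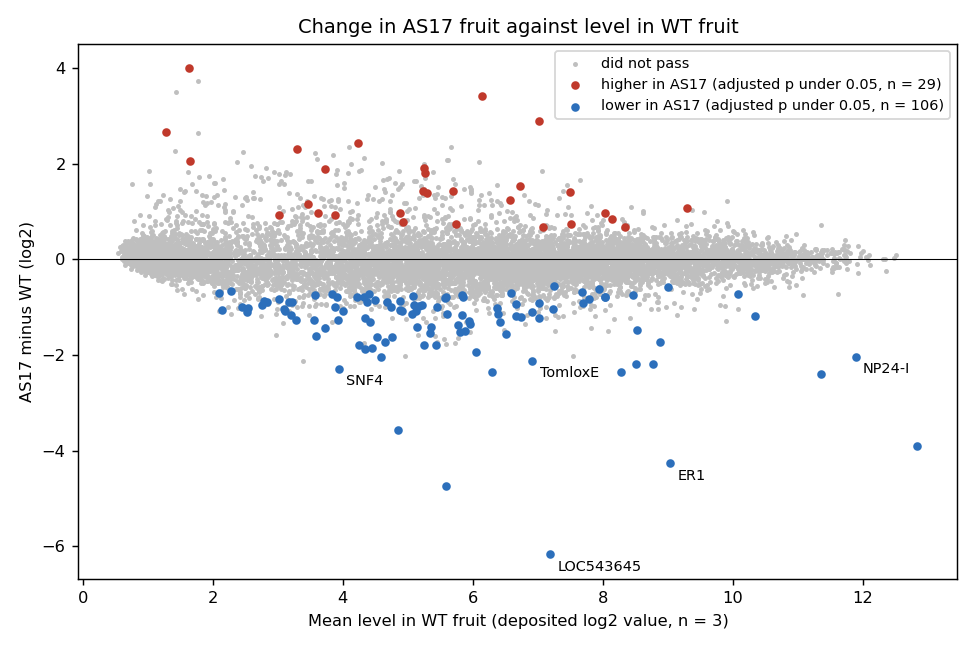
Change of each tested probe set, AS17 minus WT (log2), against its mean level in WT fruit (deposited log2 value, n = 3). Red points are the 29 probe sets that were higher in AS17 and blue points the 106 that were lower, at an adjusted p under 0.05 in limma, and grey points did not pass. Calls lie at all levels above background, and the named genes with falls of about 2 or more are labelled.

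The count depended on single arrays. It was 20 without AS17 pool 3, and 22, 35 and 35 without WT pools 1, 2 and 3. Since the AS5 arrays enter the shared estimate of spread, leaving out AS5 pool 1 or 2 gave 73 or 48. Without AS17 pool 1, the AS17 array that stood apart, 104 passed, and 64 of these were among the 135. Without both AS17 pool 1 and AS5 pool 3, 315 passed, 75 higher and 240 lower.

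**Figure D2:**
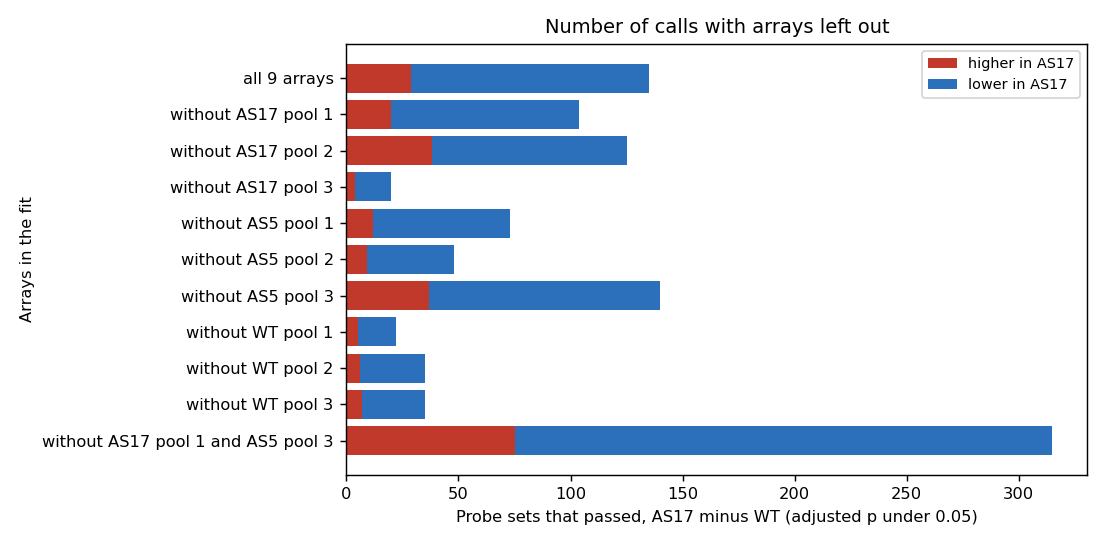
Number of probe sets that passed in AS17 minus WT (adjusted p under 0.05) with all 9 arrays and with arrays left out of the fit. Each bar is split into probe sets higher in AS17 (red) and lower in AS17 (blue), and runs from 20 without AS17 pool 3 to 315 without both AS17 pool 1 and AS5 pool 3.

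Of the named genes that fell in AS17, 4 also passed in AS5: LOC543645, SNF4, NP24-I and P18. LOC543645, to which no role is assigned here, stood at 0.97, 1.01 and 1.09 in the AS17 pools, 0.96, 0.76 and 0.82 in the AS5 pools and 7.2, 6.57 and 7.8 in the WT pools. It was thus at background in every antisense array and well above it in every WT array, at least 43.6-fold lower in AS17 (adjusted p = 6.51e-06). SNF4 encodes a regulatory subunit of SnRK1, a kinase complex that responds to low energy. It stood at 1.47, 1.85 and 1.63 in the AS17 pools, 1.77, 2.14 and 2.32 in the AS5 pools and 4.2, 3.76 and 3.87 in the WT pools, and all 3 AS17 values were at or below their own array's background level, though 1.85 and 1.63 were above that of every WT array. Its fall in AS17 was at least 4.58-fold (adjusted p = 0.000742), or at least 1.59-fold with the highest reporter control of each array as background. The other SnRK1 genes on the array did not pass: SNF1, the catalytic subunit, had a difference of 0.28, GAL83 of -0.02 and Sip1 of 0.60 (adjusted p from 0.43 to 0.983).

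NP24-I, an osmotin-type protein of the pathogenesis-related class that accumulates under salt, also fell. It stood at 10.13, 9.7 and 9.73 in the AS17 pools, 10.67, 10.83 and 10.48 in the AS5 pools and 12.03, 11.91 and 11.74 in the WT pools. The 3 groups did not overlap, with AS17 lowest and AS5 between AS17 and WT. The fall in AS17 was 2.04 (SE 0.16, adjusted p = 0.000691), a factor of 4.12. P18, a dUTPase that keeps uracil out of DNA, stood at 3.43, 3.17 and 3.74 in the AS17 pools, 2.45, 3.37 and 3.74 in the AS5 pools and 5.07, 5.66 and 5.0 in the WT pools. Its AS17 and AS5 values overlapped, and both lay below WT. It fell by 1.8 in AS17 (SE 0.32, adjusted p = 0.0385). With 1 array left out at a time, NP24-I, SNF4 and LOC543645 passed in 9 of 9 fits, and P18 in 2.

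ER1, an ethylene-responsive gene for a proteinase inhibitor type protein, had the widest fall in AS17 of the named genes measured above background. It stood at 6.38, 4.22 and 3.72 in the AS17 pools, 6.41, 6.69 and 6.19 in the AS5 pools and 8.67, 9.76 and 8.67 in the WT pools. AS17 pool 1 was close to the AS5 pools, and AS17 pools 2 and 3 were lower than all AS5 pools. The fall in AS17 was 4.26 (SE 0.61, adjusted p = 0.0195). TomloxE, a lipoxygenase, which oxidises the fatty acids that oxylipins are made from, stood at 5.34, 5.12 and 3.94 in the AS17 pools, 5.73, 6.04 and 5.68 in the AS5 pools and 6.52, 7.61 and 6.62 in the WT pools. Every AS17 pool was below every AS5 pool, and every AS5 pool below every WT pool. It fell by 2.11 (SE 0.39, adjusted p = 0.0423). PLDa1, a phospholipase D that releases phosphatidic acid from membrane lipids, stood at 7.11, 6.98 and 6.91 in the AS17 pools, 7.43, 7.27 and 7.3 in the AS5 pools and 7.69, 7.54 and 7.83 in the WT pools. Its groups were in the same order without overlap, and the fall was 0.69 (SE 0.12, adjusted p = 0.0354). With 1 array left out at a time, ER1 passed in 5 of 9 fits and PLDa1 in 2.

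FLACCA encodes the sulfurase that activates the molybdenum cofactor of aldehyde oxidase, the enzyme of the last step of abscisic acid synthesis. It stood at 4.88, 4.81 and 4.28 in the AS17 pools, 5.47, 5.63 and 5.62 in the AS5 pools and 6.05, 6.07 and 5.72 in the WT pools. The AS17 pools were all lower than the AS5 pools, which lay just below the WT pools. The fall in AS17 was 1.29 (SE 0.18, adjusted p = 0.0153), and it passed in 7 of the 9 fits with 1 array left out. FPPS1, a farnesyl diphosphate synthase that feeds sterol and sesquiterpene synthesis, stood at 6.74, 7.42 and 6.97 in the AS17 pools, 7.15, 6.72 and 7.02 in the AS5 pools and 8.47, 8.01 and 9.09 in the WT pools. The 2 antisense lines overlapped there and both were below WT, and it fell by 1.48 in AS17 (SE 0.28, adjusted p = 0.0444). PSY2 is a phytoene synthase, the entry step of carotenoid synthesis, but not the fruit enzyme, Psy1, given below. It stood at 4.34, 4.09 and 4.53 in the AS17 pools, 4.69, 4.51 and 4.66 in the AS5 pools and 4.96, 5.14 and 5.14 in the WT pools. It fell by 0.76 (SE 0.13, adjusted p = 0.036), with the antisense lines overlapping and both below WT. GA3ox1, an oxidase that makes active gibberellin, was near background throughout, at 1.72, 1.9 and 2.1 in the AS17 pools, 2.07, 1.98 and 2.13 in the AS5 pools and 2.84, 2.45 and 3.07 in the WT pools. It fell by 0.88 (SE 0.17, adjusted p = 0.0493), with AS17 pool 2 at background and the AS17 and AS5 pools overlapping. FPPS1, PSY2 and GA3ox1 each passed in 1 of the 9 fits with 1 array left out, as did TomloxE.

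CAT2, a catalase that removes hydrogen peroxide, stood at 6.4, 6.02 and 6.17 in the AS17 pools, 6.75, 6.56 and 6.45 in the AS5 pools and 7.23, 7.46 and 7.01 in the WT pools. Every AS17 pool was below every AS5 pool and every AS5 pool below every WT pool, and the fall in AS17 was 1.04 (SE 0.16, adjusted p = 0.0236). CITRX, a thioredoxin first found as a partner of the Cf-9 resistance protein, stood at 7.25, 7.34 and 7.35 in the AS17 pools, 7.64, 7.49 and 7.7 in the AS5 pools and 7.98, 8.07 and 7.77 in the WT pools. It fell by 0.63 (SE 0.12, adjusted p = 0.0441), in the same order of groups, but passed in 0 of the 9 fits with 1 array left out. MFP1, a filament-like protein that binds matrix attachment regions of DNA, stood at 4.61, 4.69 and 4.08 in the AS17 pools, 5.19, 4.96 and 5.07 in the AS5 pools and 5.59, 5.82 and 5.4 in the WT pools. It fell by 1.14 (SE 0.18, adjusted p = 0.0296), with no overlap between any of the groups. For copz1, a coatomer subunit of the vesicles of the Golgi, the values were 5.36, 5.1 and 5.3 in the AS17 pools, 5.61, 5.48 and 6.18 in the AS5 pools and 6.36, 6.49 and 6.32 in the WT pools. It fell by 1.13 (SE 0.18, adjusted p = 0.0302), with the AS17 pools lowest and 1 AS5 pool close to WT. The gene that rose, LOC543515, stood at 4.59, 4.46 and 4.7 in the AS17 pools, 4.13, 4.63 and 4.62 in the AS5 pools and 3.59, 3.66 and 3.6 in the WT pools. Both antisense lines were above WT and overlapped each other, and the rise in AS17 was 0.96 (SE 0.15, adjusted p = 0.0281). Of the 9 fits with 1 array left out, CAT2 passed in 5, and MFP1, copz1 and LOC543515 in 4 each.

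**Figure D3:**
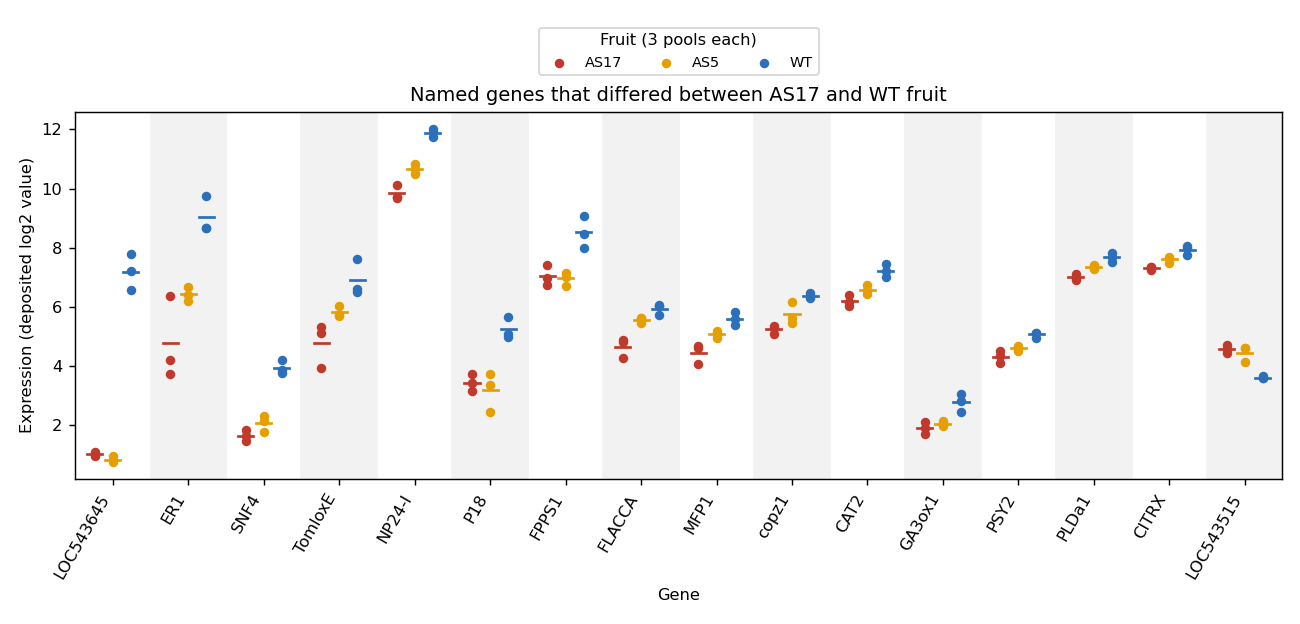
Deposited log2 value of the 16 named genes that passed in AS17 minus WT, by array. For each gene the points are the 3 pools of AS17 (red), AS5 (orange) and WT (blue), and the bars are group means. AS17 lies below WT for 15 genes and above it for LOC543515, and by group mean AS5 lies between them for 13 of the 16. The genes were picked for passing in AS17, and both lines are set against the same WT arrays. The order of the means is thus no test of a weaker change in AS5.

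The other 119 calls in AS17 minus WT were unnamed probe sets. The one of smallest p stood at 0.85, 0.85 and 0.88 in the AS17 pools, 1.03, 0.89 and 0.73 in the AS5 pools and 5.78, 5.42 and 5.57 in the WT pools. It was at background in all antisense pools, at least 14.4-fold lower in AS17 (adjusted p = 5.51e-07). The other probe set chosen among those that fell, a very bright one, stood at 8.95, 9.04 and 8.83 in the AS17 pools, 8.81, 8.38 and 8.18 in the AS5 pools and 12.82, 12.82 and 12.88 in the WT pools. Its WT values were the highest of each WT array and equal in pools 1 and 2, so the measured fall of 3.9 (SE 0.16, adjusted p = 6.51e-06) is read as a minimum. Among those that rose, a dim probe set stood at 4.72, 6.78 and 5.37 in the AS17 pools, 4.85, 5.77 and 5.39 in the AS5 pools and 2.37, 0.94 and 1.58 in the WT pools. Its measured rise was 3.99 (SE 0.53, adjusted p = 0.0137), with 1 WT pool at background. A brighter one stood at 10.06, 9.04 and 9.57 in the AS17 pools, 8.22, 9.56 and 9.94 in the AS5 pools and 4.86, 7.41 and 6.14 in the WT pools. It rose by 3.42 (SE 0.64, adjusted p = 0.0442). For all 4 of these the AS5 pools lay on the same side of WT as the AS17 pools, and the AS17 and AS5 pools overlapped for 3 of them. The exception was the very bright one, where the AS17 pools were above the AS5 pools.

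The AS17 calls were then set beside AS5. In AS5 minus WT, 38 probe sets passed (0.379%), 35 of which also passed in AS17. This left 100 AS17 calls that AS5 lacked, 21 higher and 79 lower, and 12 of them were named genes: ER1, TomloxE, FPPS1, FLACCA, MFP1, copz1, CAT2, GA3ox1, PSY2, PLDa1, CITRX and LOC543515. Over the 100, the median change was -0.90 in AS17 and -0.48 in AS5, and the AS5 adjusted p ran from 0.0604 to 0.833. Both contrasts use the same WT arrays, and the 100 were picked for passing in AS17. The AS5 change had the opposite sign for 1 of the 100. For 49 of them the AS17 pools lay entirely beyond the AS5 pools in the direction of the change, and for 51 the lines overlapped. Over all probe sets the lines did not overlap for 8.26%, and picking the 100 by their AS17 values favours a higher count. AS17 calls that AS5 lacked numbered 75 without AS17 pool 1 and 4 without AS17 pool 3. Leaving out WT pool 1, 2 or 3 gave 7, 21 or 19, and leaving out AS5 pool 1 or 2 gave 53 or 31. Leaving out both AS17 pool 1 and AS5 pool 3 gave 270.

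A call in 1 line and not in the other is no test of a difference, so AS17 was compared with AS5 directly. In limma, 0 of 10038 probe sets passed (0.0%), with a smallest adjusted p of 0.0936. At an unadjusted p under 0.05 there were 591 (5.89%), and 0 passed with array weights, with pool number as a block, or with any 1 array left out. The pools of the 2 lines did not overlap for 8.26% of probe sets, with AS17 below AS5 for 7.02% and above it for 1.24%.

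Intervals for the difference, AS17 minus AS5, show what the arrays allow. For FLACCA the difference was -0.91 (95% interval -1.31 to -0.51, adjusted p = 0.585), and for NP24-I it was -0.81 (-1.16 to -0.46, adjusted p = 0.585). For ER1 and TomloxE the differences were -1.66 (-3.05 to -0.26, adjusted p = 0.807) and -1.01 (-1.90 to -0.13, adjusted p = 0.819). MFP1 differed by -0.62, copz1 by -0.50, CAT2 by -0.39, PLDa1 by -0.34 and CITRX by -0.29, with adjusted p from 0.776 to 0.82. The intervals of GA3ox1 (-0.54 to 0.24), FPPS1 (-0.56 to 0.71) and LOC543515 (-0.22 to 0.46) spanned 0, as did that of PSY2, with a difference of -0.30 and an upper limit of 0.0039. The intervals are not adjusted for the number of genes. Picking these genes by their AS17 values or by p between the lines also favours differences away from 0.

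The 10 named genes of smallest p between the lines were NP24-I and FLACCA, given above, and 8 that passed in no contrast. AREB1, a bZIP factor that binds abscisic acid response elements, stood at 4.07, 3.85 and 3.66 in the AS17 pools, 4.66, 4.58 and 4.69 in the AS5 pools and 4.42, 4.33 and 4.33 in the WT pools. AS17 was below WT and AS5 above WT in every pool, with a difference between the lines of -0.79 (95% interval -1.07 to -0.50, adjusted p = 0.478). ZEP, zeaxanthin epoxidase, which makes the epoxycarotenoid precursors of abscisic acid, stood at 6.13, 5.99 and 5.79 in the AS17 pools, 6.59, 6.47 and 6.43 in the AS5 pools and 6.4, 6.54 and 6.48 in the WT pools. Its AS5 and WT pools overlapped, and the AS17 pools were below both. Cel2, a cellulase, stood at 7.94, 8.91 and 9.89 in the AS17 pools, 7.86, 6.98 and 6.51 in the AS5 pools and 7.29, 7.14 and 6.78 in the WT pools, with AS17 above both other groups, and its difference between the lines was 1.79 (0.70 to 2.88).

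GLX1, a glyoxalase, TCTR2, a kinase of the CTR1 type, and NPR1, a regulator of salicylic acid responses, were lower in every AS17 pool than in every AS5 pool, with differences of -0.47, -0.43 and -0.42. The expansin gene EXPA6 and SODCP.2, a plastid superoxide dismutase, overlapped between AS17 and WT and were lower in every AS5 pool, with differences between the lines of 0.72 and 1.1. EXPA6 was near background throughout, and AS5 pool 3 was at background for it. None of these 5 genes, nor AREB1, ZEP or Cel2, passed between the lines, where their adjusted p ran from 0.478 to 0.764, or in AS17 minus WT, where it ran from 0.083 to 0.958.

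**Figure D4:**
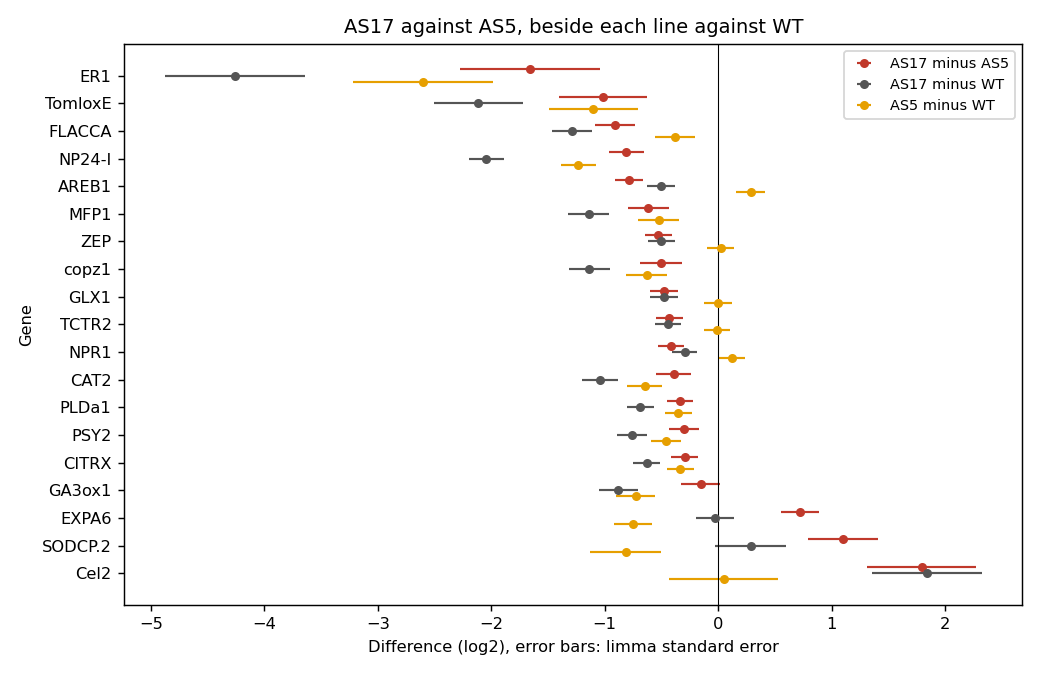
Log2 difference of AS17 minus AS5 (red), AS17 minus WT (grey) and AS5 minus WT (orange), with limma's standard error as bars. Shown are 10 genes that passed in AS17 and not in AS5 together with the 10 named genes of smallest p between the lines, 19 genes in all since FLACCA is in both. The AS5 points lie nearer 0 than the AS17 points for most genes, and no AS17 minus AS5 difference passed. Picking 10 of the genes for passing in AS17 and not in AS5 favours AS5 points nearer 0.

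Lists of genes by function were then counted in AS17 minus WT. The 21 lists held 288 genes, of which 1 rose and 10 fell, against 1.34% of all probe sets that passed. Leaving out AS17 pool 3 turned this count of 11 into 3. Leaving out WT pool 1, 2 or 3 gave 2, 3 or 5, and leaving out AS5 pool 1 or 2 gave 7 or 5. Medians of the lists are given beside that of all probe sets, -0.02, and their counts at an unadjusted p under 0.05 beside the 17.3% of all probe sets. In the 4 SnRK1 genes, given above, 1 fell and 1 had such a p.

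Of 6 abscisic acid genes, 1 fell (FLACCA) and 5 did not pass, with a median change of -0.29. At an unadjusted p under 0.05 there were 5 of the 6. ZEP and AREB1, given above, had differences of -0.50 and -0.50 (adjusted p = 0.083 and 0.0933). NCED1, the epoxycarotenoid cleavage enzyme, stood at 7.99, 7.79 and 7.54 in the AS17 pools, 7.78, 7.79 and 7.52 in the AS5 pools and 6.75, 6.62 and 7.4 in the WT pools. All AS17 pools were above all WT pools, at a difference of 0.85 that did not pass (adjusted p = 0.0951). The remaining members, named here after their values were seen, were TAS14, a dehydrin, at 1.31 (adjusted p = 0.137) and LEA14 at -0.09. The list thus held changes of both signs.

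Of 15 genes of carotenoid and isoprenoid synthesis, PSY2 and FPPS1 fell while 13 did not pass, with a median of -0.16, and 5 of the 15 had an unadjusted p under 0.05. Psy1, the fruit phytoene synthase, named here after its values were seen, was among the 13. Its brighter probe set overlapped between AS17 and WT. A dim one, with WT pools 1 and 3 at background, was higher by 3.72 and did not pass (adjusted p = 0.0707). PDS, phytoene desaturase, stood at 6.95, 7.56 and 6.84 in the AS17 pools, 7.43, 7.51 and 7.14 in the AS5 pools and 8.03, 7.86 and 7.63 in the WT pools. The AS17 pools were below the WT pools, at a difference of -0.72 that did not pass (adjusted p = 0.129). Of 9 gibberellin genes, GA3ox1 fell and 8 did not pass, 2 of which were at background in all AS17 and WT pools, and 1 of the 9 had an unadjusted p under 0.05. In limma 0 of 9 genes for auxin and other hormones passed, and 3 had an unadjusted p under 0.05. Among them CYP85A1, of brassinosteroid synthesis, had a difference of -0.77 and IAA17, an auxin response repressor, of 1.48 (adjusted p = 0.108 and 0.129).

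In limma 0 of 33 ethylene genes passed and 6 had an unadjusted p under 0.05, with a median of -0.04. The smallest p was that of ACO6, an oxidase that forms ethylene, which stood at 7.49, 7.82 and 7.08 in the AS17 pools, 6.97, 7.54 and 7.03 in the AS5 pools and 5.35, 5.79 and 6.76 in the WT pools. Its AS17 pools were all above its WT pools, at a difference of 1.5 (SE 0.35, adjusted p = 0.0818). ACS2, a ripening synthase of the ethylene precursor, had a difference of 1.07 (adjusted p = 0.163), and ETR5, an ethylene receptor, one of -0.50 (adjusted p = 0.185). Of 9 ripening transcription factors 0 passed in limma, and 0 had an unadjusted p under 0.05. RIN and NOR, regulators that fruit need to ripen, are named here after their values were seen. RIN stood at 10.05, 9.99 and 9.59 in the AS17 pools, against 9.93, 9.96 and 10.01 in the WT pools. NOR stood at 8.11, 8.87 and 8.74 in the AS17 pools, against 8.8, 8.61 and 8.85 in the WT pools, and the groups overlapped for both.

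Of 46 cell wall genes, 1 rose (LOC543515) and 45 did not pass, 10 of them at background in all AS17 and WT pools, with a median of 0.17. At an unadjusted p under 0.05 there were 9 of the 46. The expansin gene EXPA4 stood at 8.43, 7.04 and 8.6 in the AS17 pools, 6.77, 6.85 and 7.81 in the AS5 pools and 5.0, 6.01 and 6.0 in the WT pools. Every AS17 pool was above every WT pool, and the difference of 2.36 did not pass (SE 0.47, adjusted p = 0.0511). The galactosidase genes TBG2 and TBG5 had differences of -0.79 and -0.50 (adjusted p = 0.0767 and 0.0816).

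Of 22 pathogenesis-related and wound genes, 2 fell (ER1 and NP24-I), 20 did not pass, 4 of the 22 had an unadjusted p under 0.05, and the median was 0.05. LAPA1, a wound-inducible leucine aminopeptidase, stood at 6.98, 4.54 and 5.62 in the AS17 pools, 4.66, 5.26 and 5.27 in the AS5 pools and 3.45, 4.12 and 3.24 in the WT pools. All AS17 pools were above all WT pools, at a difference of 2.1 that did not pass (adjusted p = 0.0996), and AS17 pool 1 was the highest array. Of 14 lipoxygenase and oxylipin genes, TomloxE fell, 13 did not pass, and 3 of the 14 had an unadjusted p under 0.05. OPR3, a reductase of jasmonate synthesis, had a difference of 1.43 (adjusted p = 0.195), again highest in AS17 pool 1. Of 20 redox genes, CAT2 fell, 19 did not pass and 4 of the 20 had an unadjusted p under 0.05, with dehydroascorbate reductases DHAR1 and DHAR2 at 0.43 and -0.48.

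Of 8 heat shock genes 0 passed in limma and 0 had an unadjusted p under 0.05, at a median of -0.24 in AS17 minus WT and 0.39 in AS5 minus WT. HSP21, a plastid small heat shock protein, stood at 9.03, 10.12 and 9.8 in the AS17 pools, 10.36, 10.31 and 11.67 in the AS5 pools and 10.26, 10.13 and 10.18 in the WT pools. AS17 lay below WT and AS5 above it in every pool, narrowly in AS17 pool 2, with AS17 pool 1 the lowest and AS5 pool 3 the highest array. The difference between the lines was -1.13 (95% interval -1.99 to -0.27, adjusted p = 0.776).

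Of 19 genes of sucrose and hexose metabolism and transport, 0 passed in limma and 4 had an unadjusted p under 0.05. Hexokinase hxk1 had a difference of 1.17, sucrose synthase sus3 of -0.52 and sucrose phosphate synthase SPS of -0.42, while the cell wall invertase lin5 was at background in the WT pools and in 1 AS17 pool (adjusted p from 0.143 to 0.219). Of 3 starch genes and 15 genes of water channels and ion transport, 0 passed in limma and 0 had an unadjusted p under 0.05. Of 4 genes listed for GABA and steroidal alkaloids, 0 passed in limma and 2 had an unadjusted p under 0.05. The highest differences were those of gad2 and GABA-TP2, at 1.64 and 1.58 (adjusted p = 0.135 and 0.146), whose synonyms GAME11 and GAME12 are names of steroidal alkaloid genes.

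Of 14 cell cycle and DNA synthesis genes, P18 fell and 13 did not pass, while 7 of the 14 had an unadjusted p under 0.05. CDKA1, a cyclin-dependent kinase, stood at 8.68, 8.21 and 8.91 in the AS17 pools, 8.4, 7.95 and 8.67 in the AS5 pools and 6.9, 7.3 and 7.79 in the WT pools. The AS17 pools were above the WT pools, at a difference of 1.27 that did not pass (adjusted p = 0.0685). PCNA, the sliding clamp of DNA replication, had a difference of -0.69 and krp2, a kinase inhibitor, of 1.22. Of 15 amino acid genes, 0 passed in limma and 4 had an unadjusted p under 0.05, among them ADC, arginine decarboxylase, at 0.73 and SAM3, which makes S-adenosylmethionine, at 0.98. Of 8 phenylpropanoid genes 0 passed in limma and 1 had an unadjusted p under 0.05. The same counts, 0 and 1, held for 5 translation factor genes, whose differences ran from 0.01 to 0.40.

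**Figure D5:**
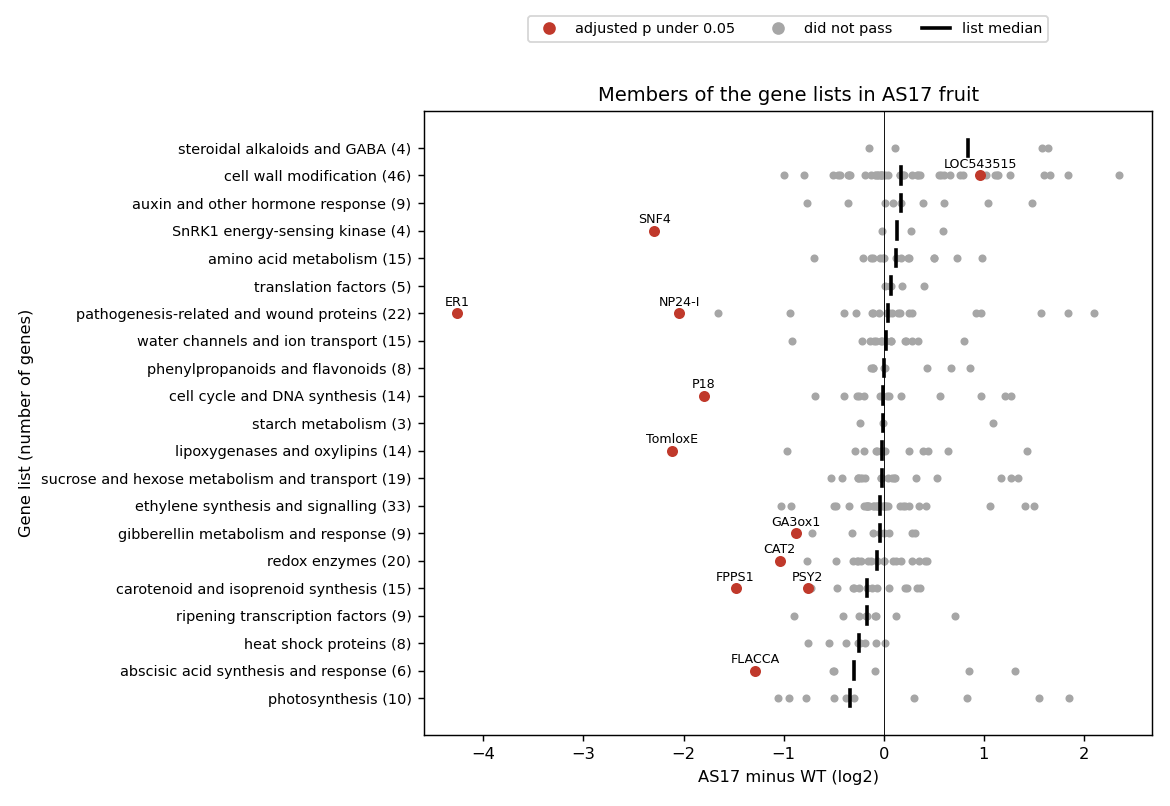
Log2 change, AS17 minus WT, of each gene of the 21 lists, with the number of genes in brackets and lists ordered by their median (black bar). Red points passed at an adjusted p under 0.05 over all probe sets, and grey points did not. The 11 red points are spread over 9 lists, and most medians lie close to 0.

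Markers of other tissues that a mesocarp pool could hold were read in the same arrays. Both seed markers, MAN1 and MAN2, were at background in every AS17 and WT pool. Of the 3 epidermis markers, LE16 and TSW12 were at or near background and ltpg1 stood at 4.74 to 6.47 in AS17, against 4.78 to 5.22 in WT. The vascular marker SUT2 stood at 4.92 to 5.23 in AS17, against 4.95 to 5.11 in WT. TPRP-F1, the only locular gel marker named, stood at 4.24, 2.25 and 3.85 in AS17, against 0.99, 2.52 and 1.34 in WT, a difference of 1.82 that did not pass (adjusted p = 0.151). AS17 pool 2 was there within the WT range, while the AS5 pools, at 2.7, 3.61 and 3.78, were all above the WT pools. Of 10 photosynthesis genes, 0 passed in limma and 5 had an unadjusted p under 0.05, with PSBP at -1.06 and PsbQ, its partner in the oxygen-evolving complex, at 1.85 (adjusted p = 0.109 and 0.199). The genes among them set as markers of green tissue were CAB4 at 0.83, PSBO at -0.78 and LOC543978, with the synonym psaD, at -0.50 (adjusted p from 0.27 to 0.428). CAB5, also a marker, was at or near background in the AS17 and WT pools. The part of other tissues in the calls was not tested.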

How the data were processed

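The authors deposited log2 expression values for every probe set on each array. RMA, named in the submitters' processing notes, corrects background, normalises between arrays and summarises probes. No version or settings of it are given in the sources used here. These values carry no detection calls and were used without further scaling. They hold repeats: 10.7% to 13.0% of an array's values were shared exactly by 10 or more probe sets and have no order among themselves. Groups came from the labels.

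A linear model over all 9 arrays, with 1 mean per group, used lmFit and eBayes of limma 3.58.1 (R 4.3.3) for AS17 minus WT, AS5 minus WT and AS17 minus AS5. The contrasts share arrays. All adjusted p-values come from this fit with Benjamini-Hochberg adjustment over 10038 probe sets. Intervals are 95% intervals from it. The number of arrays limits the precision.

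An array's background level was the 95th percentile of its 63 reporter gene controls. Where no AS17 array exceeded it, the fold is given as a lower bound against the higher of background and measured value, as means of log2 values. Names came from the platform annotation of the table's probe sets, and 885 of the 909 named probe sets matched the RefSeq table of tomato assembly SLM_r2.1, used for synonyms only. For a gene with several probe sets, the brightest over all arrays stood for it in the lists.

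The comparison, lists and naming rule were chosen with earlier results of these data known. The rule named up to 15 genes per direction that passed in AS17 minus WT without overlap, 2 unnamed probe sets per direction, up to 10 AS17 calls that AS5 lacked and 10 genes overall by p between the lines, and up to 4 members per list by p. One list, for the ASR family, had 0 members. The code was tested on simulated data. Plots were made in Python 3.11.15 with matplotlib 3.10.9. Alternatives covered dim probe sets, scaling, variance models, array weights, 2-group fits, pool number as a block, thresholds and left-out arrays.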

Additional observations from a re-analysis of the deposited data

Results flagged for a closer look

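AREB1 and HSP21 lay on opposite sides of WT in the antisense lines: every AS17 pool was below and every AS5 pool above all WT pools. This order was looked for only among genes picked by the naming rule, which took AREB1 for its small p between the lines. Over all probe sets, AS17 lay below AS5 for 7.02% and below WT for 12.5%. The share with the full order of the groups was not counted, so it is not known whether it is unusual. For AREB1, the abscisic acid response factor, the difference AS17 minus AS5 was -0.79 (unadjusted p = 0.000143, adjusted p = 0.478 in limma). For HSP21, the plastid heat shock protein, it was -1.13 (unadjusted p = 0.016, adjusted p = 0.776), so neither passed. Both lines are set against the same WT arrays. HSP21 in AS17 pool 2 was 10.12, next to 10.13 in WT pool 2.

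Of 22 control probe sets for tomato genes, which were left out of the tests, 14 overlapped between AS17 and WT, among them all those for gapdh and ef1a. A further 7 were higher in every AS17 array than in every WT array, 1 of them, for PhyB2, at background, and 1 was lower. The lower one, for 25S rRNA, stood at 11.03 ± 0.21 in AS17 and 11.34 ± 0.10 in WT, a difference of -0.316 (SD, n = 3 each). Among the 6 higher ones above background, the ubiquitin probe set for the 3′ part stood at 9.81 ± 0.39 in AS17 and 8.87 ± 0.37 in WT, a difference of 0.936 (SD, n = 3 each). That for the middle part stood at 7.87 ± 0.44 in AS17 and 6.81 ± 0.44 in WT, a difference of 1.05, and that for the 5′ part at 8.37 ± 0.46 in AS17 and 7.28 ± 0.42 in WT, a difference of 1.09. A 5′ probe set labelled GlutTrans stood at 10.03 ± 0.32 in AS17 and 9.44 ± 0.29 in WT, a difference of 0.594, and a middle one at 5.44 ± 0.09 in AS17 and 5.03 ± 0.12 in WT, a difference of 0.411. The middle actin probe set stood at 9.23 ± 0.15 in AS17 and 8.84 ± 0.24 in WT, a difference of 0.393. These values carry no test, and 9.1% of all tested probe sets had every AS17 array above every WT array. The 3′ minus 5′ signal of the actin, ef1a, gapdh and ubiquitin controls overlapped between AS17 and WT. For ubiquitin it was 1.36 to 1.55 in AS17 and 1.42 to 1.74 in WT.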

How the results depend on the processing

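The following 3 counts were recomputed: probe sets that passed in AS17 minus WT (135), those among them that AS5 lacked (100), and passing genes of the lists (11). They stayed within 1.5 times, at 114 to 142, 76 to 107 and 9 to 12, with an intensity trend, robust variances, 1 probe set per gene, no dim probe sets, quantile normalisation or median centring. Array weights gave 311, 192 and 18. A fit on only the arrays of the groups compared gave 47, 27 and 4. At an adjusted p under 0.01 they were 20, 8 and 2, and under 0.1 they were 354, 302 and 22. With a change of at least 1 also required, 83 and 54 remained of the first 2 counts by construction. With 1 array left out they ran from 20 to 140, 4 to 109 and 2 to 12, and fewer arrays also leave fewer degrees of freedom. Without both AS17 pool 1 and AS5 pool 3 they were 315, 270 and 15. AS17 minus AS5 gave 0 calls under every alternative except an adjusted p under 0.1, which gave 1. No named gene's call reversed. LOC543645, SNF4, NP24-I and the 2 unnamed probe sets chosen among those that fell passed under all 21 alternatives. With the highest reporter control as background, the lower bounds were 15.1-fold for LOC543645, 4.99-fold for the unnamed probe set at background and 1.59-fold for SNF4. Causes of these differences were not tested beyond what is stated.

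Pool number as a replicate block gave 74, 48 and 7 for these counts and 0 for AS17 minus AS5. The labels number the pools, but same-numbered pools correlated in their deviations from the group means at -0.38 to 0.55 and not all above 0.1, so the pools were taken to share only a number, and the block is given as an alternative.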

Other observations

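Without the 2 arrays that stood apart, AS17 pool 1 and AS5 pool 3, AS17 is represented by pools 2 and 3, and 33 named probe sets passed in AS17 minus WT. The genes below were picked after their values were seen. Leaving out AS5 pool 3 acts on AS17 minus WT only through the shared estimate of spread. ACO5, an oxidase that forms ethylene, stood at 10.56, 6.25 and 6.08 in the AS17 pools, 7.31, 8.61 and 10.49 in the AS5 pools and 8.83, 8.06 and 8.79 in the WT pools. It was low in AS17 pools 2 and 3 and highest of all in AS17 pool 1 and AS5 pool 3. Its difference, AS17 minus WT, was -2.39 (SE 0.39, adjusted p = 0.0316) without the 2 arrays and -0.93 (adjusted p = 0.747) with all. ACO5 did not pass with only AS17 pool 1 left out (adjusted p = 0.172). DREB1, a transcription factor that binds dehydration response elements, stood at 6.38, 4.4 and 3.85 in the AS17 pools, 5.77, 5.36 and 6.04 in the AS5 pools and 5.55, 5.72 and 5.54 in the WT pools. It was again low in AS17 pools 2 and 3 but not in pool 1, at -1.48 (SE 0.20, adjusted p = 0.0187) without the 2 arrays and -0.72 (adjusted p = 0.551) with all. DREB1 also passed with only AS17 pool 1 left out (adjusted p = 0.0329). PGH1, an enolase of glycolysis, stood at 11.37, 9.33 and 9.72 in the AS17 pools, 9.71, 9.62 and 11.22 in the AS5 pools and 10.4, 10.72 and 10.63 in the WT pools. Its difference was -1.06 (SE 0.16, adjusted p = 0.0274) without the 2 arrays and -0.45 (adjusted p = 0.742) with all. PGH1 did not pass with only AS17 pool 1 left out (adjusted p = 0.271).

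Eix1, a receptor for a fungal xylanase, and GLDH, the last enzyme of ascorbate synthesis, were at -1.91 (SE 0.33, adjusted p = 0.0367) and -1.09 (SE 0.13, adjusted p = 0.0145) without the 2 arrays. ERF4, an ethylene response factor, was at -1.1 (SE 0.14, adjusted p = 0.0165), and the sucrose synthase gene sus3 at -0.76 (SE 0.12, adjusted p = 0.0274). AREB1 and ZEP passed as well, at -0.60 (SE 0.11, adjusted p = 0.0399) and -0.58 (SE 0.12, adjusted p = 0.0477). With all arrays none of these passed. The adjusted p was then 0.138 for Eix1, 0.162 for GLDH, 0.188 for ERF4 and 0.219 for sus3. For AREB1 and ZEP it was 0.0933 and 0.083. Cel2, the cellulase, was higher, at 2.33 (SE 0.36, adjusted p = 0.0274), against an adjusted p of 0.107 with all arrays. A dim probe set of Psy1, the fruit phytoene synthase, was higher too. It stood at 7.52, 4.64 and 4.33 in the AS17 pools, 5.16, 5.02 and 6.9 in the AS5 pools and 1.4, 2.37 and 1.55 in the WT pools. Its difference was 2.71 (SE 0.28, adjusted p = 0.00952) without the 2 arrays and 3.72 (adjusted p = 0.0707) with all. WT pools 1 and 3 were at background for it, so the size of the rise rests partly on values at the floor. In the limma fit without the 2 arrays, AS5 minus WT also passed for this Psy1 probe set (adjusted p = 0.00576) and for ERF4 (adjusted p = 0.0181). It did not pass there for the other genes picked here. AS5 pool 3, left out there, stood at 6.62 for ERF4, against 6.18, 6.44 and 6.6 in the WT pools. The brighter Psy1 probe set stood at 11.96, 12.14 and 11.91 in the AS17 pools, against 12.1, 12.13 and 12.13 in the WT pools, with overlap. With only AS17 pool 1 left out, GLDH and sus3 also passed (adjusted p = 0.0199 and 0.042). Eix1, ERF4, AREB1, ZEP, Cel2 and the dim Psy1 probe set did not (adjusted p from 0.0503 to 0.233). Leaving out an array because it stands apart narrows the spread within its group by construction, and with 2 AS17 pools these values have no further check. What set AS17 pool 1 and AS5 pool 3 apart was not tested.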
